A study of Mus musculus with 25 samples.

Results

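The genes described here are 31 members of the cholesterol and fatty acid synthesis pathways, taken by symbol from RNA-seq tables of mouse esophagus. They divide into a sterol branch of 21 genes (18 enzymes from acetyl-CoA to cholesterol, the regulators Srebf2 and Insig1 and the sterol carrier Stard4) and a fatty acid branch of 10 genes (3 enzymes that supply acetyl-CoA or its condensed forms, 6 enzymes of fatty acid and glycerolipid synthesis, and the regulator Srebf1). All 31 were among the 21106 genes listed for pups and 30 among the 19942 listed for adults. Idi1 was not analysed here in adults. Every listed member passed the filter on low values in both tables.

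The study asked how a cancer-derived gain of NRF2 function compares with loss of KEAP1 in squamous cells. In the NRF2 L30F knock-in, phenylalanine replaces leucine at codon 30, and Cre recombination switches the mutant allele on. Pups aged 7 to 10 days carried constitutive Cre under the keratin 5 promoter, K5Cre, which is active in squamous epithelium: the groups were wild type, homozygous L30F (NRF2L30F/L30F::K5Cre) and KEAP1 loss (KEAP1flox/flox::K5Cre), with 3 libraries each. Adults aged 6 to 9 weeks carried the tamoxifen-inducible K5CreERT2 and were sampled 1 week after tamoxifen at 100 µg per g body weight: the groups were wild type, heterozygous L30F (NRF2L30F/+::K5CreERT2), homozygous L30F (NRF2L30F/L30F::K5CreERT2) and KEAP1 loss (KEAP1flox/flox::K5CreERT2), with 4 libraries each. The labels do not say whether wild-type mice carried Cre. Whether the 25 libraries stand for 25 mice is not stated either, and p-values measure only how far libraries of a group spread, which may be technical.

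As background, cholesterol is built from acetyl-CoA through mevalonate, the isoprenoid diphosphates, squalene and lanosterol, and fatty acids are built from the same acetyl-CoA by carboxylation, elongation and desaturation. Both pathways are switched on by the membrane-bound transcription factors SREBP2 (gene Srebf2, mostly sterol genes) and SREBP1 (Srebf1, mostly fatty acid genes), which INSIG proteins hold in the endoplasmic reticulum when sterols are plentiful. KEAP1 targets NRF2, the activator of antioxidant and detoxification genes, for degradation. Stratified squamous epithelium uses cholesterol and long-chain fatty acids for its membranes and barrier lipids.

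Promoter windows of 300 bases, 250 before and 50 after a gene's start, were taken from a RefSeq table on GRCm38.p6, an earlier build than the GRCm39 of the deposited tables, and matched by symbol. The table held 30 windows for 25 of the 31 members. The 250 bases before the start are printed for the pair of members per branch with the largest pup changes that have a window, because these genes moved together in pups. Lower case is used throughout, and capitals mark matches on either strand to the motifs searched: TCACNCCAC (a sterol element), CCAAT (the NF-Y box), GGGCGG (the GC box of Sp1), CACGTG (an E-box) and TGACNNNGC (the core of the antioxidant response element).
Hsd17b7, chr1:169969206-169969455, minus strand: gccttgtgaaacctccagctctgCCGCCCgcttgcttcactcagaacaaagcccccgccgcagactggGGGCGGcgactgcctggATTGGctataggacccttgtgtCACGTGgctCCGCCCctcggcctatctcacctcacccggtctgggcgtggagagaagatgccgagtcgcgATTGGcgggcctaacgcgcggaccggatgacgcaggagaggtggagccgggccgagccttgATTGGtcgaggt
Lss, chr10:76531355-76531604, plus strand: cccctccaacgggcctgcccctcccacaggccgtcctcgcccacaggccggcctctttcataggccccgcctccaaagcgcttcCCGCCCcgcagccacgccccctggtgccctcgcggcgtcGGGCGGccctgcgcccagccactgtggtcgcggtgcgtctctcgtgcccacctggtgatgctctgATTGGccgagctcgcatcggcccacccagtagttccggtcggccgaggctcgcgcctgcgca
Elovl6, chr3:129532136-129532385, plus strand: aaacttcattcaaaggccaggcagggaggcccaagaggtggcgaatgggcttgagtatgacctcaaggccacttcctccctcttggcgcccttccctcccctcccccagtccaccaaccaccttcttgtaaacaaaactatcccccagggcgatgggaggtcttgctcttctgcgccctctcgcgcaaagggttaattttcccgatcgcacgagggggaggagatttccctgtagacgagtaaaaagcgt
Acss2, chr2:155517793-155518042, plus strand: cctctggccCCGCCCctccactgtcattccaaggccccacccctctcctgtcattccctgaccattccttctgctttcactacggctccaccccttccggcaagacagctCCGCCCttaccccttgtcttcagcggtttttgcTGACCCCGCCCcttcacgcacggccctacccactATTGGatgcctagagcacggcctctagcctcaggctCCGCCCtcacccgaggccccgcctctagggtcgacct

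Over the 300-base windows, CCAAT occurred in 21 of 30 member windows, against 37.4% of all 32851 windows in the table. GGGCGG occurred in 21 of 30 member windows, against 35.7% of all. The antioxidant response element core occurred in 6 of 30 member windows, against 12.4%, and CACGTG in 4 of 30 member windows, against 7.2%. TCACNCCAC occurred in 1 member window, that of Hmgcs1, as TCACCCCAC beginning 137 bases before the start, against 1.2% of all windows. In the Acss2 window the antioxidant core and a GC box overlap, so 1 capital run holds both. The Elovl6 window held none of the 5 motifs. In the sterol branch, CCAAT was in 16 of 20 windows and GGGCGG in 17 of 20, and in the fatty acid branch in 5 and 4 of 10. These matches describe letters and are not measured binding.

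Values below are normalised read counts, and log2 fold changes are given ± SE on the log2(value + 1) scale, where changes of low genes come out too small. A gene was called when its limma p-value, adjusted over all genes tested, was under 0.05. Pup libraries held 18791985 to 19650124 reads. Adult depth differed by genotype: 27529863 to 32281335 in wild type, 12814897 to 16921606 in heterozygotes, 10867745 to 11643384 in homozygotes and 22484286 to 31344260 in KEAP1 loss. Keap1 lay below every wild-type library in each KEAP1-loss library, and Nqo1, a standard NRF2 target, lay above every wild-type library in each mutant library. Nfe2l2, the gene of NRF2, had 6110.4, 5203, 5638 and 5695 normalised counts in adult wild type, 4117, 3307, 3542 and 3293 in heterozygotes, 1806, 1618, 1204 and 1199 in homozygotes and 4231, 4209, 4403 and 4364 in KEAP1 loss. In pups it had 1261, 1338 and 1305 in wild type, 1601, 1291 and 2029.9 in homozygotes and 2929, 2557 and 2053 in KEAP1 loss. Its level was lower in every adult mutant library than in wild type, and no reads here show the L30F codon itself. Bulk RNA cannot tell fewer cells of a type from less RNA per cell, which touches every result below. Krt5, which defines the basal squamous layer, had 20096, 11481 and 10400.4 normalised counts in wild-type pups. It had 35495, 34924 and 30737.5 in pup homozygotes and 43189, 43372 and 33506 in pup KEAP1 loss, both above every wild-type library. Its highest adult value was 68405, but pups and adults were normalised separately, so levels are not compared between them.

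In pups the whole sterol branch was higher in both mutants. In L30F homozygotes 20 of 21 sterol genes rose and none fell, where 22.0% of all genes tested rose and 17.1% fell. In KEAP1 loss all 21 rose, where 26.3% of all genes rose and 23.2% fell. The median log2 fold change of the branch was 1.53 in homozygotes and 1.90 in KEAP1 loss, against -0.03 and -0.05 over all genes tested. Each of the 21 genes had every mutant library above every wild-type library in both comparisons. The share of all genes that separate in this way was not counted, so no contrast with them is drawn.

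Hsd17b7, a ketosteroid reductase of C4 demethylation, changed most. Its wild-type pup libraries had 295, 276 and 283 normalised counts, the homozygotes 2684, 2882 and 3269.9, and KEAP1 loss 3052, 4719 and 3772. The lowest mutant library was therefore several times the highest wild-type library. The log2 fold change was 3.36 ± 0.14 in homozygotes (adjusted p = 6.4e-08) and 3.73 ± 0.14 in KEAP1 loss (adjusted p = 2.1e-08), or 10.3-fold and 13.3-fold. Lss, lanosterol synthase, followed: 284, 358 and 347 in wild type, 1359, 1389.8 and 1547 in homozygotes and 1532, 2206 and 1825 in KEAP1 loss. Its log2 fold changes were 2.12 ± 0.14 (adjusted p = 1.1e-06) and 2.48 ± 0.14 (adjusted p = 2.4e-07). The groups of both genes did not overlap with wild type.

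Fdft1, squalene synthase and the first committed step to sterols, was the third in homozygotes. It had 575, 529 and 659.7 normalised counts in wild type, 2570.4, 2528 and 2430.3 in homozygotes and 2543, 3248 and 2948 in KEAP1 loss. Its log2 fold changes were 2.10 ± 0.10 (adjusted p = 1.5e-07) and 2.31 ± 0.10 (adjusted p = 5.6e-08). Msmo1, the C4-methylsterol oxidase, was the third in KEAP1 loss, with 403, 453 and 563 in wild type, 1520.3, 1849 and 1812 in homozygotes and 2331, 2966 and 2301 in KEAP1 loss. Its log2 fold changes were 1.87 ± 0.14 (adjusted p = 5e-06) and 2.42 ± 0.14 (adjusted p = 5.2e-07).

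Along the pathway, the other enzymes rose from the first step to the last. The log2 fold changes in homozygotes and in KEAP1 loss were 1.60 and 1.84 for Acat2, which condenses acetyl-CoA, and 0.94 and 1.29 for Hmgcs1, which makes HMG-CoA. In the mevalonate part they were 1.53 and 1.91 for Mvk, 1.66 and 2.15 for Pmvk, the kinases that phosphorylate mevalonate, and 1.93 and 2.25 for Mvd, the decarboxylase. For the isoprenoid steps they were 1.64 and 2.06 for Idi1, the isomerase, and 1.49 and 1.98 for Fdps, farnesyl diphosphate synthase. These steps all lie before squalene and also feed non-sterol isoprenoids. Sqle, squalene epoxidase, had 1.74 and 2.13, and Cyp51, lanosterol demethylase, 1.49 and 1.90. For the later sterol reductions and demethylations the values were 1.53 and 1.63 for Tm7sf2 and 1.35 and 1.62 for Nsdhl. For the last enzymes the values were 0.63 and 0.94 for the isomerase Ebp, 0.79 and 1.23 for the desaturase Sc5d and 1.17 and 1.46 for Dhcr7, which makes cholesterol. All of these were called in both mutants. The values of Acat2 and Idi1 are less certain, because near-identical copies (Acat3, Idi1-ps1) can share their reads.

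Of these, 5 enzymes rose in pups and fell in at least 1 adult mutant group, described further on. Fdps had 653, 629.7 and 770.1 normalised counts in wild-type pups, 1957, 2018 and 1774 in homozygotes and 2542, 3054 and 2495 in KEAP1 loss. Tm7sf2 had 103, 98.7 and 92.4 in wild type, 356, 289 and 224 in homozygotes and 329, 301 and 290.5 in KEAP1 loss. Neither gene overlapped with wild type in either mutant. Ebp had 224, 243 and 254 in wild type, 334, 436 and 354 in homozygotes and 502, 495 and 394 in KEAP1 loss. Sc5d had 645, 614 and 725 in wild type, 1117, 1119.7 and 1185 in homozygotes and 1341, 1799 and 1549.6 in KEAP1 loss. Dhcr7 had 619.6, 611 and 550.2 in wild type, 1388, 1377 and 1239 in homozygotes and 1568, 1755 and 1597 in KEAP1 loss. In all 3 the mutant libraries lay above every wild-type library.

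The 3 regulator and carrier genes had a median log2 fold change of 0.45 in homozygotes and 0.90 in KEAP1 loss, against 1.56 and 1.94 for the 18 enzymes. Srebf2 had 3149, 2966 and 3118 normalised counts in wild-type pups, 5065, 4802 and 4581 in homozygotes and 5451, 6646 and 5691 in KEAP1 loss. Its log2 fold changes were 0.65 ± 0.08 (adjusted p = 0.00016) and 0.94 ± 0.08 (adjusted p = 7.1e-06). Insig1, which retains SREBP and is itself an SREBP target, had 645, 530.1 and 711 in wild type, 724, 856 and 993 in homozygotes and 916, 1472 and 1172 in KEAP1 loss. The 2 mutant groups lay above wild type, but only the KEAP1-loss change was called: 0.90 ± 0.18 (adjusted p = 0.0029), against 0.45 ± 0.18 in homozygotes (adjusted p = 0.084). Stard4, a cytosolic sterol carrier, had log2 fold changes of 0.40 ± 0.14 (adjusted p = 0.041) and 0.86 ± 0.14 (adjusted p = 0.00051). The call in homozygotes was lost without wild-type libraries 1 or 2, homozygous libraries 2 or 3 or KEAP1-loss library 3 (log2 fold change 0.31 to 0.42, adjusted p = 0.051 to 0.15), and also with upper-quartile scaling (0.21, adjusted p = 0.23) and with limma-voom (0.19, adjusted p = 0.28).

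**Figure D1:**
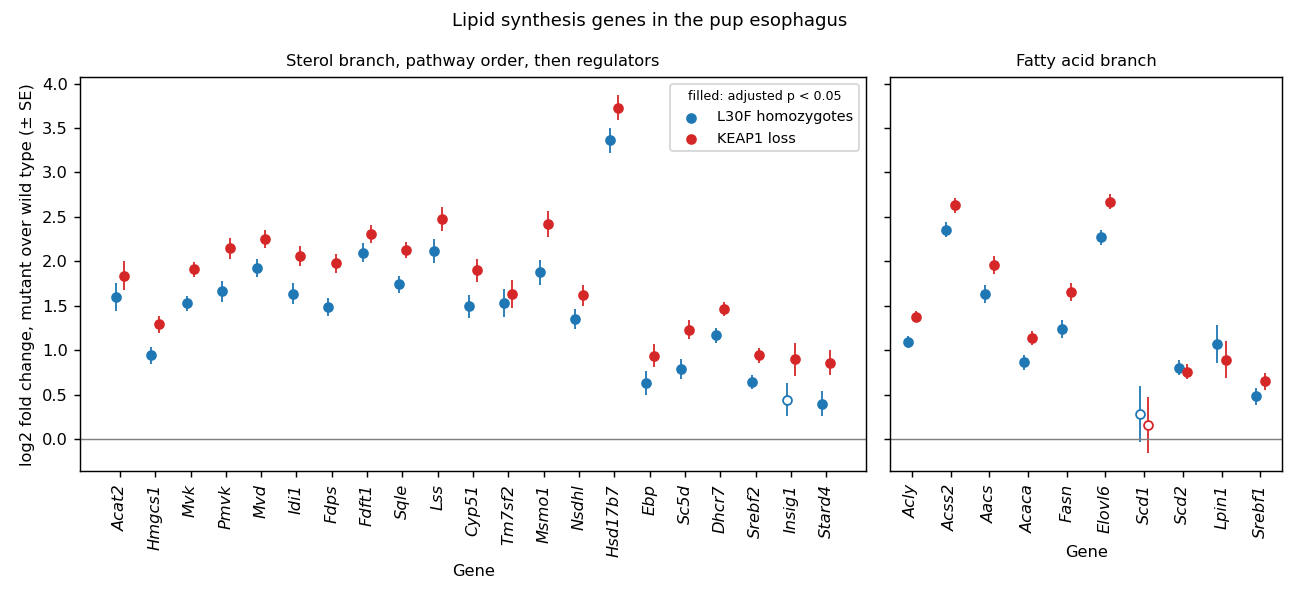
Log2 fold change over wild type (y axis, ± SE) of each member (x axis) in pup L30F homozygotes and KEAP1 loss, 3 libraries per group, sterol branch in pathway order on the left and fatty acid branch on the right; filled points passed the adjusted p threshold. All 21 sterol genes lie above 0 in both mutants, with Hsd17b7 highest at 3.36 and 3.73, and Scd1 is the member of the fatty acid branch that is open in both.

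The fatty acid branch rose in pups as well. Of its 10 genes, 9 rose in homozygotes and 9 in KEAP1 loss, and none fell, beside the same shares of all genes as above. The branch median was 1.08 and 1.26 (log2). All 3 acetyl-CoA supply genes were called in both. Acss2, which makes acetyl-CoA from acetate, had 352, 379 and 428 normalised counts in wild type, 1912, 1993 and 2014 in homozygotes and 2322, 2556 and 2287 in KEAP1 loss. Its log2 fold changes were 2.35 ± 0.08 (adjusted p = 1.4e-08) and 2.63 ± 0.08 (adjusted p = 4.6e-09), with no overlap with wild type. Aacs, acetoacetyl-CoA synthetase, had 492, 534 and 562 in wild type, 1563, 1708 and 1672 in homozygotes and 2096, 2332 and 1769 in KEAP1 loss. Its changes were 1.64 ± 0.10 (adjusted p = 8.7e-07) and 1.96 ± 0.10 (adjusted p = 1.6e-07). Acly, ATP citrate lyase, which makes cytosolic acetyl-CoA from citrate, changed by 1.09 and 1.38.

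Among the enzymes, Elovl6, which extends palmitate to stearate, changed most. It had 632, 700.0 and 770.1 normalised counts in wild type, 3403, 3270.4 and 3446 in homozygotes and 4507, 4745 and 4134 in KEAP1 loss. Its log2 fold changes were 2.27 ± 0.08 (adjusted p = 1.8e-08) and 2.67 ± 0.08 (adjusted p = 3.9e-09). Fasn, fatty acid synthase, rose by 1.24 and 1.65, and Acaca, acetyl-CoA carboxylase and the committed step, by 0.86 and 1.14. Lpin1, a phosphatidate phosphatase of glycerolipid synthesis, rose by 1.07 and 0.90. Fasn had 4349, 3730.2 and 3832 normalised counts in wild-type pups, 9829.6, 9584 and 8624 in homozygotes and 11550.0, 14395 and 11592 in KEAP1 loss. Lpin1 had 571, 784 and 629.8 in wild type, 1658, 1314 and 1206 in homozygotes and 881, 1429 and 1445 in KEAP1 loss. The mutant libraries of both genes lay above every wild-type library.

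The pair of stearoyl-CoA desaturases differed. Scd2 had 4973, 4709 and 5016 normalised counts in wild-type pups, 7723, 9227 and 8800.3 in homozygotes and 8215, 8835 and 7867 in KEAP1 loss. It rose by 0.81 ± 0.08 (adjusted p = 2.8e-05) and 0.76 ± 0.08 (adjusted p = 2.8e-05). Scd1 had 806, 1714 and 1849 in wild type, 2065, 1372 and 1636 in homozygotes and 1279, 1718 and 1601 in KEAP1 loss, so the groups overlapped. It was called in neither mutant: 0.29 ± 0.32 (adjusted p = 0.51) and 0.15 ± 0.32 (adjusted p = 0.72). The Scd genes are close paralogs and can share reads. Srebf1 had 872, 819 and 821 in wild type, 1265, 1169 and 1084 in homozygotes and 1168, 1472 and 1316 in KEAP1 loss, and rose by 0.48 ± 0.09 (adjusted p = 0.0026) and 0.65 ± 0.09 (adjusted p = 0.00028).

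Markers of several cell types moved with these pup results. The summed normalised counts of 10 squamous epithelium markers were 167760.0 to 199340.0 in wild type, 338270.0 to 388060.0 in homozygotes and 441990.0 to 509700.0 in KEAP1 loss, with no marker at 0 and 9 of 10 called higher and 1 lower in each mutant. Of 10 fibroblast markers, 7 and 8 were lower, and their sum went from 471520.0 to 509600.0 to 167720.0 to 233940.0 and 102720.0 to 201310.0. The adipose sum was 3171 to 7615 in wild type, 7624 to 10034 in homozygotes and 8025 to 13691 in KEAP1 loss, with 2 and 2 of 10 called higher and 1 and 2 lower, and 1 at 0 in every KEAP1-loss library. The adipose markers went in different directions. Plin4 had 2145, 3029 and 2653 normalised counts in wild type and 4994, 8776 and 7888 in KEAP1 loss. Plin1 had 91, 932 and 484 in wild type and 26, 40 and 36 in KEAP1 loss. The leukocyte sum was 2192 to 2304, 2475 to 2936 and 2622 to 2921 in the same order, with 2 and 3 of 8 listed markers called higher and 1 and 2 lower. None of these 4 sums overlapped between wild type and either mutant. In KEAP1 loss 5 more sums lay apart from wild type. The smooth muscle sum was 77022 to 77808 in wild type and 34185 to 43111 in KEAP1 loss (0 of 10 called higher, 4 lower). The red blood cell sum was 62047 to 144280.0 in wild type and 5839 to 10779 in KEAP1 loss (0 of 7 called higher, 5 lower). The striated muscle sum was 211870.0 to 242200.0 in wild type and 285840.0 to 319890.0 in KEAP1 loss (1 of 10 called higher, 1 lower). The muscle and blood lists thus went in different directions. The endothelial sum was 8938 to 9932 in wild type and 6906 to 7832 in KEAP1 loss (1 of 10 called higher, 6 lower). The Schwann and myelin sum was 9033 to 10367 in wild type and 5042 to 7883 in KEAP1 loss (0 of 10 called higher, 3 lower). The covariates here and below are mean log2 levels of the markers of a list, not their sums. With the adipose level as a covariate 29 members were called in homozygotes and 31 in KEAP1 loss, and with the striated muscle level 28 and 30. The part of the fibroblast, smooth muscle, endothelial, leukocyte, Schwann and blood cells was not tested. With the mean log2 level of the squamous markers as a covariate, an alternative chosen after seeing the data, calls among members fell from 29 to 2 in homozygotes and from 30 to 2 in KEAP1 loss. All calls fell from 8225 to 456 and from 10404 to 320.0. The members still called were Acss2 (2.71, adjusted p = 0.0068 in homozygotes and 3.08, adjusted p = 0.015 in KEAP1 loss) and Elovl6 (2.58, adjusted p = 0.0079 and 3.08, adjusted p = 0.016). The sterol median stayed at 1.32 and 1.55 with all 21 genes positive, and the fatty acid median at 1.05 and 1.10, but no sterol gene was called. The groups do not overlap in this marker level, so in these libraries it and genotype cannot be told apart. The markers did not all move alike. Krt4, the one that fell, had 61419, 57869 and 54846 normalised counts in wild type. It had 19584, 10711 and 11327 in homozygotes and 18247, 19989 and 20060 in KEAP1 loss. Whether the marker level measures the share of epithelium was not tested.

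Scaling also shifts the pup values. Upper-quartile scaling moved the median of all genes by -0.19 and -0.24 (log2) for homozygotes and KEAP1 loss, and limma-voom on recovered reads by -0.21 and -0.34. The share of all calls that were higher went from 56.3% to 35.6% and 32.4% in homozygotes and from 53.1% to 33.6% and 27% in KEAP1 loss. The sterol medians under these scalings were 1.34 and 1.32 in homozygotes and 1.66 and 1.56 in KEAP1 loss.

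The L30F homozygotes lay below KEAP1 loss in pups. All 21 sterol genes had a negative log2 difference, with a median of -0.37, and 3 of 10 fatty acid genes were positive, with a branch median of -0.27. Sterol genes varied together from library to library, so their signs are not independent. Few differences passed the test: 3 sterol and 2 fatty acid genes were lower and none higher, where 2.40% of all genes were lower and 1.76% higher. They were Mvk (-0.38 ± 0.09, adjusted p = 0.042), Fdps (-0.49 ± 0.10, 0.038), Sc5d (-0.44 ± 0.11, 0.04993), Acly (-0.28 ± 0.06, 0.043) and Elovl6 (-0.40 ± 0.08, 0.037). Mvk had 866, 823 and 735 normalised counts in homozygotes and 981, 1126 and 1053 in KEAP1 loss, which do not overlap. These calls were fragile: leaving out 1 library gave 0 to 6 member calls, upper-quartile scaling 1, and limma-voom, the fit of only these groups and the squamous covariate 0 each. The Sc5d call was lost without wild-type libraries 1, 2 or 3, homozygous libraries 1, 2 or 3 or KEAP1-loss libraries 2 or 3 (log2 fold change -0.47 to -0.34, adjusted p = 0.06 to 0.14), the Mvk call without wild-type libraries 2 or 3, homozygous libraries 1, 2 or 3 or KEAP1-loss libraries 1, 2 or 3 (log2 fold change -0.43 to -0.32, adjusted p = 0.06 to 0.13), the Fdps call without wild-type libraries 2 or 3, homozygous libraries 1, 2 or 3 or KEAP1-loss libraries 1, 2 or 3 (log2 fold change -0.54 to -0.40, adjusted p = 0.05011 to 0.11), the Acly call without wild-type libraries 2 or 3, homozygous libraries 1, 2 or 3 or KEAP1-loss libraries 1 or 2 (log2 fold change -0.29 to -0.24, adjusted p = 0.065 to 0.12) and the Elovl6 call without wild-type libraries 2 or 3, homozygous libraries 1 or 2 or KEAP1-loss libraries 1 or 2 (log2 fold change -0.41 to -0.36, adjusted p = 0.05011 to 0.12). The share of all calls that were higher moved from 42.3% to 62.5% with upper-quartile scaling and 81.1% with limma-voom. The squamous epithelium sum was 338270.0 to 388060.0 in homozygotes and 441990.0 to 509700.0 in KEAP1 loss. The red blood cell sum was 24852 to 104970.0 in homozygotes and 5839 to 10779 in KEAP1 loss. These are the sums that do not overlap, so they and genotype cannot be told apart here. The part of blood cells was not tested.

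**Figure D2:**
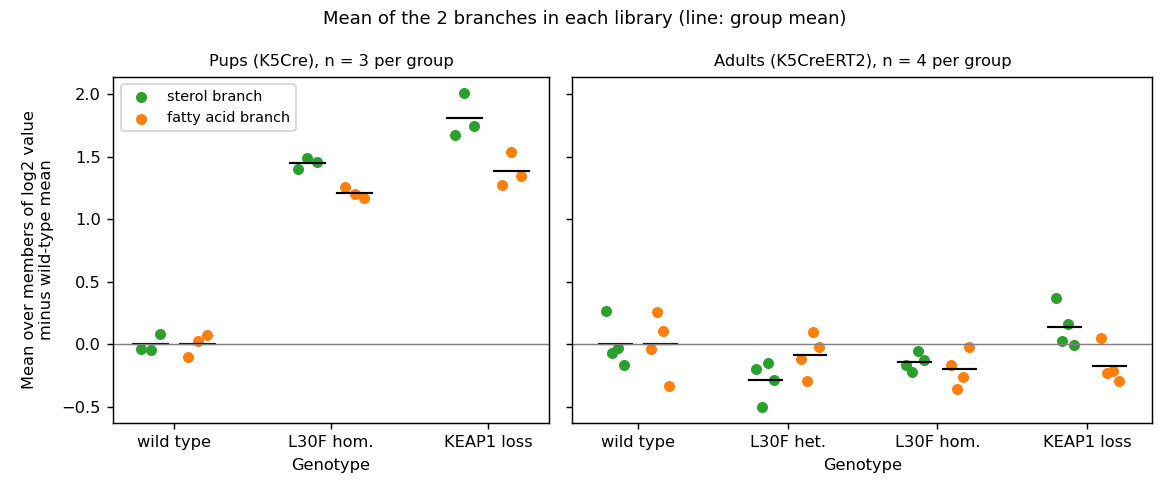
Mean over the members of a branch of the log2 value minus its wild-type mean (y axis), for each library (points, with the group mean as a line) by genotype, pups on the left (n = 3) and adults on the right (n = 4). In pups the sterol mean of the mutant libraries lies between 1.40 and 2.01 and the fatty acid mean between 1.17 and 1.54; in adults all libraries lie between -0.50 and 0.37.

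In adult L30F heterozygotes, 1 week after tamoxifen, no member rose. Among the sterol genes 4 of 20 fell, and none of the fatty acid genes did by limma, where 4.90% of all genes fell and 4.80% rose. At an unadjusted p under 0.05, 2 of the 10 fatty acid genes passed, and limma-voom called 1 higher and 1 lower. All 20 sterol genes had a negative change, with a median of -0.24. The fatty acid median was -0.14, and that of all genes 0.01. Sterol genes varied together from library to library, so their signs are not independent. The mean log2 difference of the sterol branch from its wild-type mean was 0.265, -0.07, -0.03 and -0.16 in wild-type libraries 1 to 4. In heterozygotes it was -0.20, -0.50, -0.15 and -0.29, so the groups overlap. In wild-type library 1 all 20 sterol genes lay above their wild-type mean. Fdps had 3392, 2338, 2837 and 2529 normalised counts in wild type and 2282, 1608, 1980.1 and 1811 in heterozygotes, without overlap (-0.53 ± 0.12, adjusted p = 0.013). Ebp had 1154, 973, 1116 and 743 in wild type and 651, 602, 757 and 778 in heterozygotes, which overlap (-0.50 ± 0.13, adjusted p = 0.024). Lss had 1383, 981, 1005 and 968 in wild type and 803, 641, 893 and 799 in heterozygotes, which do not (-0.46 ± 0.13, adjusted p = 0.04). Srebf2 had 5156, 4612, 4629.5 and 4398 in wild type and 3992, 3341, 3524 and 3736 in heterozygotes, also without overlap (-0.37 ± 0.07, adjusted p = 0.0073).

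Of these heterozygote calls, that of Srebf2 held without each library in turn. The Fdps call was lost without wild-type library 1 (log2 fold change -0.43, adjusted p = 0.054), the Ebp call without wild-type libraries 1, 2 or 3 or heterozygous libraries 1 or 2 (log2 fold change -0.51 to -0.43, adjusted p = 0.053 to 0.097) and the Lss call without wild-type libraries 1, 2 or 3, heterozygous libraries 1, 2 or 4, homozygous libraries 1 or 2 or KEAP1-loss library 3 (log2 fold change -0.50 to -0.34, adjusted p = 0.05044 to 0.14). Striated muscle markers moved with this comparison: their sum was 346310.0 to 385840.0 in wild type and 473200.0 to 652790.0 in heterozygotes, with 6 of 10 called higher, and with their level as a covariate 0 members were called. The squamous epithelium sum was 1083200.0 to 1402600.0 in wild type and 717620.0 to 1005500.0 in heterozygotes (0 of 10 called higher, 0 lower). These are the sums that do not overlap between the groups. With the squamous level as a covariate 3 members were called. The number of member calls was 9 with limma-voom, which put the share of higher calls over all genes at 38.2% instead of 49.5%, and 1 in a fit of these groups alone.

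In adult L30F homozygotes, 3 of 20 sterol genes fell and none rose, and in the fatty acid branch 2 rose and 2 fell, where 11.8% of all genes rose and 10.4% fell. The branch medians were -0.13 and -0.25. The sterol genes that fell were the desaturase Sc5d, the isomerase Ebp and the reductase Dhcr7. Sc5d had 1937, 1821, 1900.1 and 1256 normalised counts in wild type and 961, 944, 1013 and 1015 in homozygotes (-0.79 ± 0.15, adjusted p = 0.0015). Ebp had 636, 640.0, 604 and 776 in homozygotes against the wild-type values above (-0.57 ± 0.13, adjusted p = 0.0054). The highest homozygote library of Ebp lies above the lowest wild-type library. Dhcr7 had 1473, 1278, 1263 and 1193 in wild type and 1025, 980.0, 945 and 1098 in homozygotes, without overlap (-0.36 ± 0.10, adjusted p = 0.016), and its call was lost without wild-type library 1 (log2 fold change -0.30, adjusted p = 0.062).

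Of the fatty acid genes in adult homozygotes, Acss2 and Scd2 rose and Fasn and Lpin1 fell. Acss2 had 1061, 983, 1082 and 895 normalised counts in wild type and 1249, 1177, 1255 and 1407 in homozygotes, without overlap (0.34 ± 0.09, adjusted p = 0.011). Scd2 had 7798, 5900.1, 5699 and 4873 in wild type and 10931, 8483, 10926 and 7263 in homozygotes (0.63 ± 0.19, adjusted p = 0.028). The lowest Scd2 library of the homozygotes lies below the highest of wild type. Fasn had 12561, 20996, 17261 and 9452 in wild type and 9265, 8584, 7846 and 12097 in homozygotes, a spread wide enough in wild type for the groups to overlap (-0.63 ± 0.21, adjusted p = 0.046). Lpin1 had 1139, 1471, 1452 and 1207 in wild type and 1000.2, 1058, 887 and 1152 in homozygotes (-0.36 ± 0.12, adjusted p = 0.04), again with overlap. The Scd2 call was lost without wild-type libraries 2, 3 or 4 or homozygous libraries 1 or 3 (log2 fold change 0.53 to 0.62, adjusted p = 0.062 to 0.08), the Fasn call without wild-type libraries 1, 2 or 3, heterozygous libraries 1 or 4, homozygous libraries 1, 2 or 3 or KEAP1-loss libraries 1, 2, 3 or 4 (log2 fold change -0.69 to -0.45, adjusted p = 0.051 to 0.14) and the Lpin1 call without wild-type libraries 2 or 3, homozygous libraries 1, 2 or 3 or KEAP1-loss library 4 (log2 fold change -0.38 to -0.29, adjusted p = 0.05004 to 0.12). The Fasn call was also lost in a fit of only these groups (-0.63, adjusted p = 0.1), with thinned reads (-0.63, adjusted p = 0.052) and with squamous markers as a covariate (-0.57, adjusted p = 0.12), and the Lpin1 call with thinned reads (-0.36, adjusted p = 0.055) and with squamous markers as a covariate (-0.35, adjusted p = 0.08). With reads thinned to the depth of the shallowest library, then, no fatty acid gene was called lower. The Acss2 call held without each library in turn.

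Adipose markers moved with the adult homozygotes: their sum was 6219, 13538, 9955 and 5804 in the wild-type libraries and 4747, 4966, 3661 and 7657 in the homozygous ones, with 2 of 10 called lower and none at 0 in every library. These sums overlap, and 4 others do not. The squamous epithelium sum was 1083200.0 to 1402600.0 in wild type and 709190.0 to 844520.0 in homozygotes (4 of 10 called higher, 2 lower). The fibroblast sum was 137660.0 to 166700.0 in wild type and 198860.0 to 277160.0 in homozygotes (4 of 10 called higher, 1 lower). Epithelial sums were thus lower and fibroblast sums higher, although more squamous markers were called higher than lower. The endothelial sum was 5165 to 6949 in wild type and 7479 to 9576 in homozygotes (4 of 10 called higher, 0 lower). The leukocyte sum was 2889 to 5301 in wild type and 5309 to 18347 in homozygotes (7 of 10 called higher, 0 lower). With the mean log2 level of the squamous markers, which is not their sum, as a covariate 8 members were called. The part of fibroblasts, endothelium and leukocytes was not tested. With the adipose level as a covariate, 2 members were called, Sc5d (-0.70, adjusted p = 0.018) and Acss2 (0.41, adjusted p = 0.019), and all calls went from 4420 to 2554.

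In adult KEAP1 loss members were called in both directions. In the sterol branch 7 of 20 genes rose and 4 fell, and in the fatty acid branch 4 of 10 rose and 4 fell, where 24.1% of all genes rose and 22.7% fell. The counts alone do not set the sterol branch apart. The branch medians were 0.20 and -0.25. The sterol genes that rose are Acat2 (0.86 ± 0.13, adjusted p = 6.7e-05), Pmvk (0.73 ± 0.14, 0.00057) and Mvd (0.74 ± 0.15, 0.00089), of the steps before squalene, Sqle (0.49 ± 0.11, 0.0016), Nsdhl (0.66 ± 0.10, 5e-05) and Hsd17b7, and the carrier Stard4 (0.51 ± 0.12, 0.0021). Hsd17b7 had 1141, 1005, 1019 and 769 normalised counts in wild type and 2255, 1665, 1723 and 1775 in KEAP1 loss (0.92 ± 0.12, adjusted p = 1.3e-05), so every KEAP1-loss library lay above every wild-type one. This was the largest rise of the branch, and the heterozygotes (963, 767, 934 and 911) and homozygotes (1202, 1224, 1105 and 1349) were called in neither direction.

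The sterol genes that fell in adult KEAP1 loss were Tm7sf2, Ebp, Sc5d and Dhcr7, which act after lanosterol, as do Nsdhl and Hsd17b7, which rose. Tm7sf2, a sterol C14 reductase, had 340.0, 249, 309 and 233 normalised counts in wild type and 162, 164, 139 and 134 in KEAP1 loss (-0.90 ± 0.14, adjusted p = 7.8e-05). Ebp had 567, 488, 504 and 566 in KEAP1 loss (-0.89 ± 0.13, adjusted p = 3.6e-05). Both lie below every wild-type library. Sc5d had 1491, 921, 1144 and 1013 (-0.60 ± 0.15, adjusted p = 0.0031), with the highest library above the lowest wild-type library, and Dhcr7 1139, 1015, 1025 and 987 (-0.32 ± 0.10, adjusted p = 0.014). The Dhcr7 call was lost without wild-type library 1 (log2 fold change -0.26, adjusted p = 0.055).

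In the fatty acid branch of adult KEAP1 loss, all 3 acetyl-CoA supply genes rose: Acly by 0.36 ± 0.11 (adjusted p = 0.015), Acss2 by 0.40 ± 0.09 (adjusted p = 0.0013) and Aacs by 0.28 ± 0.10 (adjusted p = 0.033). Acss2 had 1543, 1315, 1295 and 1177 normalised counts in KEAP1 loss against the wild-type values above. The Aacs call was lost without wild-type libraries 2, 3 or 4 or KEAP1-loss libraries 1 or 3 (log2 fold change 0.20 to 0.29, adjusted p = 0.056 to 0.12), and with upper-quartile scaling (0.23, adjusted p = 0.084) and in a fit of only these groups (0.28, adjusted p = 0.056). Of the enzymes, Scd2 rose and Fasn, Elovl6, Scd1 and Lpin1 fell. Scd2 had 22478, 15154, 17452 and 12497 normalised counts, all above the wild-type libraries (1.47 ± 0.19, adjusted p = 1.5e-05). Scd1 had 3524, 13829, 9078 and 3411 in wild type and 2879, 2468, 2119 and 2637 in KEAP1 loss, below every wild-type library (-1.31 ± 0.43, adjusted p = 0.022). Wild-type libraries 2 and 3 are the high ones, and the call was lost without wild-type libraries 2 or 3 or KEAP1-loss library 3 (log2 fold change -1.23 to -0.93, adjusted p = 0.055 to 0.07).

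Lpin1 had 688, 652, 562 and 654 normalised counts in adult KEAP1 loss, all below wild type (-1.04 ± 0.12, adjusted p = 3.3e-06). Elovl6 had 3888, 3492, 3172 and 3049 in wild type and 2526, 1978, 1760.1 and 1945 in KEAP1 loss, also without overlap (-0.73 ± 0.15, adjusted p = 0.00066). Fasn had 11072, 8492, 9405 and 8747, which overlaps the wild-type values above (-0.62 ± 0.21, adjusted p = 0.026), and its call was lost without wild-type libraries 2 or 3 or KEAP1-loss libraries 2 or 4 (log2 fold change -0.59 to -0.44, adjusted p = 0.061 to 0.095). Lpin1, Elovl6 and Fasn thus changed in opposite directions in adult and pup KEAP1 loss, as did Tm7sf2, Ebp, Sc5d and Dhcr7.

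**Figure D3:**
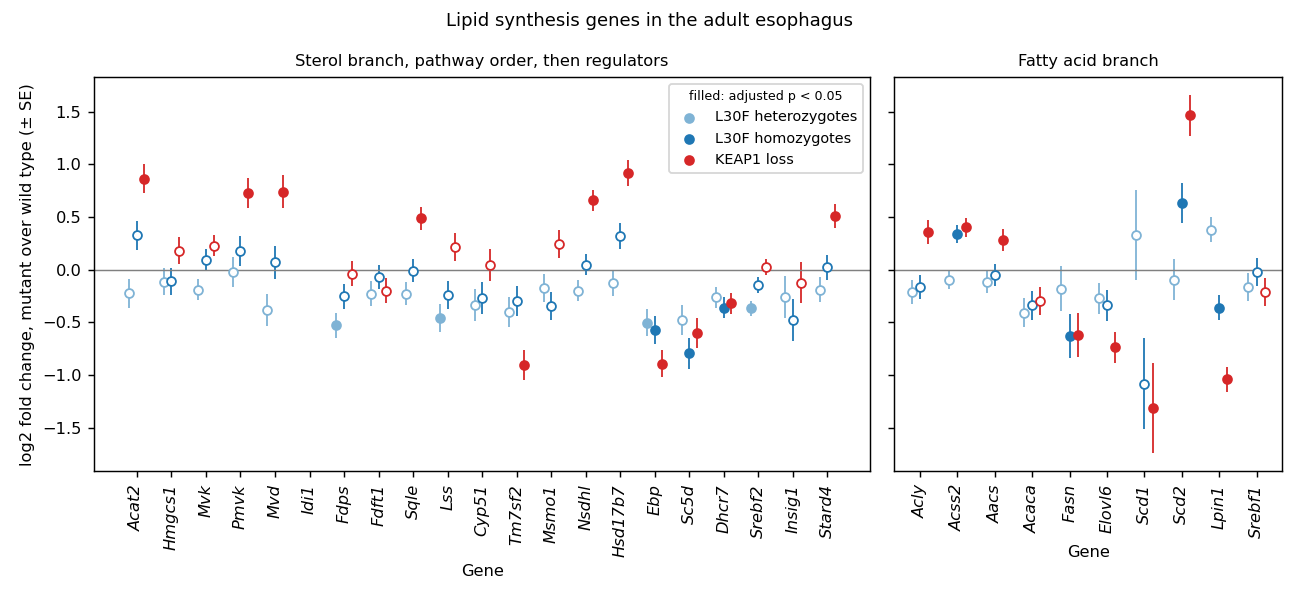
Log2 fold change over wild type (y axis, ± SE) of each member (x axis) in adult L30F heterozygotes, L30F homozygotes and KEAP1 loss, 4 libraries per group; filled points passed the adjusted p threshold, and Idi1 has no value. KEAP1 loss spans -1.31 (Scd1) to 1.47 (Scd2), while no point of the heterozygotes lies outside -0.53 to 0.38.

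Several cell type markers moved with adult KEAP1 loss. Striated muscle markers were lower in 9 of 10, with sums of 346310.0 to 385840.0 in wild type and 136970.0 to 195780.0 in KEAP1 loss. Smooth muscle markers were lower in 9 of 10, with sums of 50599 to 70203 and 27113 to 49911. Leukocyte markers were higher in 8 of 10, with sums of 2889 to 5301 and 33798 to 40954. The squamous list gave 4 higher and 2 lower, while its sum went from 1083200.0 to 1402600.0 to 437970.0 to 521620.0. Muscle and epithelial sums were thus lower and leukocyte sums higher. The adipose sum was 5804 to 13538 in wild type and 2838 to 4018 in KEAP1 loss (0 of 10 called higher, 2 lower). The fibroblast sum was 137660.0 to 166700.0 in wild type and 305930.0 to 398820.0 in KEAP1 loss (5 of 10 called higher, 2 lower). The endothelial sum was 5165 to 6949 in wild type and 9219 to 10084 in KEAP1 loss (6 of 10 called higher, 0 lower). None of these 7 sums overlapped between the groups. With the adipose level as a covariate 19 members were called, but Scd1 went from -1.31 to -0.72, adjusted p = 0.0064 and Fasn from -0.62 to -0.34, adjusted p = 0.046. With the striated muscle level as a covariate no member was called (from 19), and all calls went from 9290 to 584. The sterol median was then 0.08 and the fatty acid median -0.05. With the squamous level as a covariate 19 members were called. The groups do not overlap in the striated muscle level, so it and genotype cannot be told apart here. The part of smooth muscle, fibroblasts, endothelium and leukocytes was not tested.

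**Figure D4:**
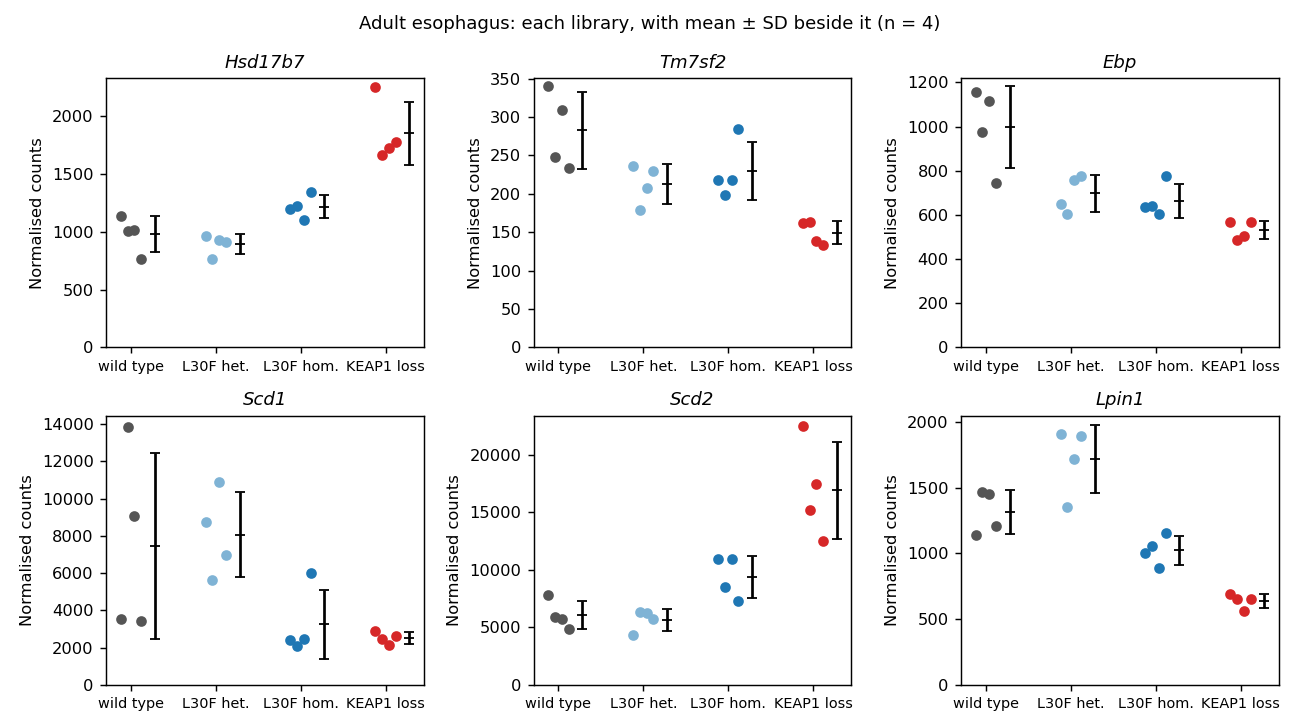
Normalised counts (y axis, from 0) of Hsd17b7, Tm7sf2, Ebp, Scd1, Scd2 and Lpin1 in each adult library (points) by genotype, with mean ± SD beside them (n = 4). Scd2 and Hsd17b7 are highest and Tm7sf2, Ebp and Lpin1 lowest in KEAP1 loss, and the wild-type libraries of Scd1 range from 3411 to 13829.

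Adult homozygotes were compared with heterozygotes to read the dose of the L30F allele. In the sterol branch 3 of 20 genes were higher in homozygotes and none lower, and in the fatty acid branch 2 were higher and 2 lower, where 8.07% of all genes were higher and 8.29% lower. With limma-voom the share of calls that were higher was 69.6% instead of 49.3%. Acat2 had 574, 486, 683 and 508 normalised counts in heterozygotes and 918, 706, 869.7 and 792 in homozygotes, without overlap (0.55 ± 0.13, adjusted p = 0.012). Hsd17b7, with the values above, also did not overlap (0.45 ± 0.12, adjusted p = 0.019). Srebf2 had 3992, 3341, 3524 and 3736 in heterozygotes and 4087, 4001, 4688 and 4258 in homozygotes (0.22 ± 0.07, adjusted p = 0.049), and its call was lost without wild-type libraries 2 or 3, heterozygous libraries 2, 3 or 4, homozygous libraries 1, 3 or 4 or KEAP1-loss libraries 1, 2, 3 or 4 (log2 fold change 0.18 to 0.24, adjusted p = 0.053 to 0.14), and with upper-quartile scaling (0.21, adjusted p = 0.064), in a fit of only these groups (0.22, adjusted p = 0.15) and with thinned reads (0.24, adjusted p = 0.06).

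In the fatty acid branch, Acss2 had 919.9, 871, 971 and 999 normalised counts in heterozygotes and 1249, 1177, 1255 and 1407 in homozygotes (0.43 ± 0.09, adjusted p = 0.004). Scd2 had 4289, 6361, 6271 and 5756 in heterozygotes and 10931, 8483, 10926 and 7263 in homozygotes (0.73 ± 0.19, adjusted p = 0.019), and its call was lost without heterozygous library 1 or homozygous libraries 1 or 3 (log2 fold change 0.60 to 0.65, adjusted p = 0.052 to 0.06). Neither gene overlaps between these groups. Lpin1 had 1912, 1357, 1722 and 1892 in heterozygotes and 1000.2, 1058, 887 and 1152 in homozygotes, without overlap (-0.74 ± 0.12, adjusted p = 0.00092). Scd1 had 8758, 5640.0, 10906 and 6977 in heterozygotes and 2433, 2093, 2447 and 6029 in homozygotes, with homozygous library 4 in the range of the heterozygotes (-1.41 ± 0.43, adjusted p = 0.039), and its call was lost without heterozygous libraries 1, 3 or 4, homozygous libraries 1, 2 or 3 or KEAP1-loss libraries 1, 2 or 4 (log2 fold change -1.47 to -1.25, adjusted p = 0.05037 to 0.1), and with limma-voom (-1.33, adjusted p = 0.052). Adipose sums were 10089.8, 8811, 13060.3 and 9932 in the heterozygous libraries and 4747, 4966, 3661 and 7657 in the homozygous ones. With their level as a covariate 2 members were called, Acss2 (0.52, adjusted p = 0.022) and Lpin1 (-0.54, adjusted p = 0.042), and with the striated muscle level 0 were. With the squamous level 4 were called. The Schwann and myelin sum was 5504 to 7902 in heterozygotes and 3090.4 to 4521 in homozygotes (0 of 10 called higher, 7 lower). The leukocyte sum was 3828 to 5098 in heterozygotes and 5309 to 18347 in homozygotes (5 of 10 called higher, 0 lower). The adipose, Schwann and leukocyte sums do not overlap between these groups, and the part of Schwann cells and leukocytes was not tested.

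Adult homozygotes and KEAP1 loss differed in more members. In the sterol branch 9 of 20 genes were lower in homozygotes and 1 higher, and in the fatty acid branch 3 of 10 were lower and 1 higher, where 13.5% of all genes were lower and 12.9% higher. The sterol genes lower in homozygotes were Acat2 (-0.54), Pmvk (-0.55), Mvd (-0.67), Sqle (-0.50), Lss (-0.46), Msmo1 (-0.58), Nsdhl (-0.61), Hsd17b7 (-0.60) and Stard4 (-0.49, all log2). Tm7sf2 was the sterol gene higher in homozygotes: 218, 199, 219 and 284 normalised counts against 162, 164, 139 and 134 (0.61 ± 0.14, adjusted p = 0.005). In the fatty acid branch Acly (-0.52), Aacs (-0.34) and Scd2 (-0.83) were lower and Lpin1 (0.68) higher. The Lss call was lost without homozygous library 4 or KEAP1-loss library 1 (log2 fold change -0.39 to -0.36, adjusted p = 0.062 to 0.067) and the Aacs call without homozygous library 2 or KEAP1-loss libraries 1 or 3 (log2 fold change -0.32 to -0.25, adjusted p = 0.062 to 0.088). The squamous, striated muscle, fibroblast, leukocyte and Schwann sums of these groups do not overlap, and the part of fibroblasts, leukocytes and Schwann cells was not tested. With the striated muscle level as a covariate no member and 1 gene in all was called.

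The effect of each genotype was then set against itself in the other age and Cre system, as the adult log2 fold change minus that in pups. For L30F homozygotes the difference was negative and called in 19 of 20 sterol genes and 8 of 10 fatty acid genes and positive in none, where 19.9% of all genes were lower and 13.6% higher. For KEAP1 loss it was negative in 19 and 9 and positive in 1 (Scd2), where 26.5% were lower and 20.6% higher. The median difference was -1.55 and -1.40 for the branches in homozygotes and -1.73 and -1.57 in KEAP1 loss, against -0.04 and -0.05 over all genes. Stard4 was called in neither (-0.38 ± 0.18, adjusted p = 0.12, and -0.35 ± 0.18, adjusted p = 0.12).

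The smallest adjusted p-values in homozygotes belonged to Acss2 (-2.01 ± 0.12, adjusted p = 1.5e-12), Elovl6 (-2.60 ± 0.17, 1.2e-11), Hsd17b7 (-3.04 ± 0.18, 1.2e-11) and Fdft1 (-2.16 ± 0.15, 2.7e-11). In KEAP1 loss they belonged to Elovl6 (-3.41 ± 0.17, 4.6e-14), Acss2 (-2.23 ± 0.12, 1e-13), Fdft1 (-2.50 ± 0.15, 7.5e-13) and Dhcr7 (-1.78 ± 0.13, 9.8e-12). Fdft1 had 2701, 1950.0, 2021 and 2075 normalised counts in adult wild type, 2048, 1909, 2117 and 2228 in homozygotes and 2151, 1806, 1904 and 1731 in KEAP1 loss, which overlap with wild type. Elovl6 had 2888, 2537, 2171 and 3264 in adult homozygotes. Acss2 rose at both ages, by 2.63 in pups and 0.40 in adults of KEAP1 loss, whereas Elovl6 rose by 2.67 in pups and fell by 0.73 in adults. Scd2 is the exception in KEAP1 loss, with 0.76 in pups and 1.47 in adults (0.70 ± 0.21, adjusted p = 0.0081). The Scd1 difference of -1.47 ± 0.53 was lost without pup wild-type library 1, pup KEAP1-loss library 2, adult wild-type libraries 2 or 3 or adult KEAP1-loss library 3 (log2 fold change -1.38 to -1.08, adjusted p = 0.056 to 0.082), and the Srebf1 difference in homozygotes, -0.50 ± 0.17, without adult wild-type library 1 or adult homozygous library 2 (log2 fold change -0.46 to -0.37, adjusted p = 0.051 to 0.067). The Scd1 call was also lost with upper-quartile scaling (-1.28, adjusted p = 0.052) and with limma-voom (-1.04, adjusted p = 0.096), the Srebf1 call with upper-quartile scaling (-0.35, adjusted p = 0.097) and with limma-voom (-0.26, adjusted p = 0.23) and the Insig1 calls of both genotypes with limma-voom (-0.67, adjusted p = 0.059, and -0.59, adjusted p = 0.061).

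The 2 experiments differ in age, in constitutive against induced Cre, in the time since recombination and in depth, and were normalised separately, so these cannot be told apart. With the squamous marker level as a covariate in each experiment, 5 members were called in homozygotes and 2 in KEAP1 loss, and the sterol medians were -1.38 and -1.52. In homozygotes these were Elovl6, Acss2, Fdft1, Lss and Msmo1, and in KEAP1 loss Elovl6 and Acss2.

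Of Srebf1, Srebf2 and Insig1, the one adult change called against wild type was that of Srebf2 in heterozygotes. Srebf2 had log2 fold changes of -0.14 ± 0.07 in homozygotes (adjusted p = 0.18) and 0.03 ± 0.07 in KEAP1 loss (adjusted p = 0.79), the last with a sign that turned under upper-quartile scaling. Srebf1 had 1351, 1355, 1196 and 1039 normalised counts in wild type, 944, 994, 1235 and 1240.5 in heterozygotes, 1409, 919, 1325 and 1252 in homozygotes and 1162, 1096, 1093 and 913 in KEAP1 loss, which all overlap. Insig1 had 1288, 1169, 918 and 805 in wild type, 824, 678, 1117 and 869.9 in heterozygotes, 721, 607, 949 and 717 in homozygotes and 1307, 784, 1002 and 773 in KEAP1 loss, with log2 fold changes of -0.26 ± 0.20, -0.47 ± 0.20 and -0.12 ± 0.20 that were not called (adjusted p = 0.45, 0.097 and 0.65). Messenger levels do not measure the cleaved, active forms of the SREBP proteins.

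Other genes around the pathway were read from lists beside the members. Of all genes tested, 22.0% rose and 17.1% fell in pup homozygotes and 26.3% and 23.2% in pup KEAP1 loss. In adults 4.80% rose and 4.90% fell in heterozygotes, 11.8% and 10.4% in homozygotes and 24.1% and 22.7% in KEAP1 loss. List counts here and in the following paragraphs stand beside these shares, and a count near its share does not set a list apart. Of 13 other sterol and SREBP pathway genes, 7 higher and 2 lower were called in pup homozygotes, 8 higher and 2 lower in pup KEAP1 loss, 2 higher and 2 lower in adult heterozygotes, 3 higher and 0 lower in adult homozygotes and 6 higher and 1 lower in adult KEAP1 loss. Soat1, which esterifies cholesterol for storage, fell in pups (-0.50 ± 0.09 and -0.92 ± 0.09) and rose in all 3 adult groups (0.45 ± 0.11, 0.85 ± 0.11 and 1.56 ± 0.11), each called. Insig2, the second SREBP retainer, changed by 0.91 and 1.00 in pups and 0.46, 0.33 and 0.15 in adults, the last not called (adjusted p = 0.16).

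A further list held 8 genes: the sterol-sensing LXR receptors themselves (Nr1h2 and Nr1h3), their targets and sterol export genes. Of these, 4 higher and 0 lower were called in pup homozygotes and 5 higher and 0 lower in pup KEAP1 loss. In adults 0 higher and 0 lower were called in heterozygotes, 1 higher and 0 lower in homozygotes and 4 higher and 0 lower in KEAP1 loss. Lpcat3, a phospholipid acyltransferase, rose in 4 of the 5, by 1.29 and 1.56 in pups and 0.34 and 0.88 in adults. Of 16 tested genes of other fatty acid and lipid synthesis, 7 higher and 1 lower, 9 higher and 3 lower, 0 higher and 1 lower, 2 higher and 5 lower and 5 higher and 7 lower were called in the same order. Dgat2, which makes triglyceride, had 522, 817 and 774 normalised counts in wild-type pups, 5128, 5372 and 4615 in homozygotes and 5724, 7207 and 6248 in KEAP1 loss. It rose by 2.86 ± 0.16 and 3.20 ± 0.16 in pups and fell in all 3 adult groups (-0.56 ± 0.16, -0.81 ± 0.16 and -0.65 ± 0.16).

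Fatty acid oxidation genes, the opposing pathway, had 7 higher and 0 lower of 14 called in pup homozygotes, 8 higher and 1 lower in pup KEAP1 loss, 0 higher and 0 lower in adult heterozygotes, 0 higher and 8 lower in adult homozygotes and 1 higher and 12 lower in adult KEAP1 loss. At an unadjusted p under 0.05, 3 of them passed in the heterozygotes. Hadha, a subunit of the mitochondrial trifunctional protein, changed by 0.52 ± 0.11 and 0.78 ± 0.11 in pups and -0.27 ± 0.09 and -0.59 ± 0.09 in adult homozygotes and KEAP1 loss. In adult KEAP1 loss striated muscle, which oxidises fatty acids, had lower markers (above), and the part of muscle in the oxidation genes was not tested.

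Within groups, most members varied together from library to library. After the group mean was taken off, pairs of sterol genes had a median Pearson r of 0.591 over 9 pup libraries (210 pairs) and 0.652 over 16 adult libraries (190 pairs). Pairs of fatty acid genes had 0.293 and 0.492, and pairs across the branches 0.456 and 0.37. Over all pairs of genes tested the median was 0.002 in pups and 0 in adults. These are descriptions, since the genes of a pair share the library and its scaling. In pups Tm7sf2 had a median r of -0.374 with the other sterol genes, Dhcr7 0.085 and Ebp 0.116. For Scd1 in adults, the median r with the sterol genes was 0.018. Its r with the mean log2 level of the adipose markers was 0.915 in adults and 0.932 in pups. Wild-type adult libraries 1 to 4 had adipose sums of 6219, 13538, 9955 and 5804 and Scd1 values of 3524, 13829, 9078 and 3411, with libraries 2 and 3 highest in both. For Fasn the r with adipose markers was 0.853 in adults and -0.232 in pups. For Scd2 it was -0.234 and -0.553.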

How the data were processed

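Esophagus RNA of mice was sequenced from directional MGIEasy libraries, per the labels. The submitters' processing notes name Salmon and GRCm39, without versions. The authors deposited log2 values, 1 table per experiment, each normalised on its own. From the values, the scale is log2(n + 4), n being a normalised read count: once the scaling of each library was undone, 100% of the values of 1000 reads or fewer were whole to within 0.1. A symbol without an entry was not analysed here. No sample column was left unused.

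Normalised counts were tested with limma 3.58.1 (statmod 1.5.0, R 4.3.3; trend, robust) on log2(value + 1). Each experiment was 1 fit of all its groups with no replicate term. The filter asked for a value of 1 or more in a number of libraries equal to the smallest group, and left 21007 genes in pups and 19857 in adults. Benjamini-Hochberg adjustment ran over these genes, and calls were made under 0.05. The adult minus pup difference of a log2 fold change was divided by the root of the summed squared SEs (Welch-Satterthwaite) for 19031 genes. The fit was also run on simulated data. The outcome of that run is not given here and lends no support to the calls.

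Values in every library were given for the 3 called members with the largest change per branch and comparison with wild type, Srebf1, Srebf2, Insig1, members called in opposite directions and the 4 smallest adjusted p per adult minus pup difference; other lists gave up to 3 genes, those called most often. One gene these rules name is not reported here. Other members were named after their values were seen. The members and lists were chosen with earlier results of these data known. Promoters are RefSeq on GRCm38.p6, and no coordinate was converted.

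Alternatives were offsets of 4 and 0.1, no filter, upper-quartile scaling, limma-voom on recovered reads, only the groups compared, a replicate block, thinned reads, adipose, striated muscle or squamous markers as a covariate (squamous chosen after seeing the data) and leaving out each library.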

Additional observations from a re-analysis of the deposited data

Results flagged for a closer look

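Single adult libraries stood apart from the other 3 of their group in 7 of 120 tests of a member and group, by the gap to the nearest library over the range of the group; chance gives about 1 in 20. Hmgcs1 in wild-type library 1 had 5684 normalised counts, against 4589 to 4656 in the other 3. Mvk in wild-type library 1 had 751 normalised counts, against 557 to 587 in the other 3. Lss in wild-type library 1 had 1383 normalised counts, against 968 to 1005 in the other 3. Sc5d in wild-type library 4 had 1256 normalised counts, against 1821 to 1937 in the other 3. Sc5d in heterozygous library 2 had 1042 normalised counts, against 1284 to 1298 in the other 3. Acaca in homozygous library 2 had 3341 normalised counts, against 3797 to 3858 in the other 3. Scd1 in homozygous library 4 had 6029 normalised counts, against 2093 to 2447 in the other 3. Hmgcs1, Mvk and Lss were high in the same wild-type library.

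The effect of L30F homozygosity on a member differed between adults and pups, by the test of the difference itself, in 19 sterol and 8 fatty acid genes. The adult minus pup log2 differences in the sterol branch were Acat2 -1.27, Hmgcs1 -1.05, Mvk -1.43, Pmvk -1.48, Mvd -1.86, Fdps -1.74, Fdft1 -2.16, Sqle -1.75, Lss -2.36, Cyp51 -1.76, Tm7sf2 -1.82, Msmo1 -2.22, Nsdhl -1.31, Hsd17b7 -3.04, Ebp -1.20, Sc5d -1.58, Dhcr7 -1.53, Srebf2 -0.79 and Insig1 -0.92. In the fatty acid branch they were Acly -1.26, Acss2 -2.01, Aacs -1.69, Acaca -1.20, Fasn -1.86, Elovl6 -2.60, Lpin1 -1.43 and Srebf1 -0.50. The experiments differ in age, Cre system and normalisation, and the share of each was not tested.

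The effect of KEAP1 loss on a member differed between adults and pups, by the test of the difference itself, in 19 sterol and 10 fatty acid genes. The adult minus pup log2 differences in the sterol branch were Acat2 -0.98, Hmgcs1 -1.11, Mvk -1.68, Pmvk -1.42, Mvd -1.51, Fdps -2.01, Fdft1 -2.50, Sqle -1.64, Lss -2.27, Cyp51 -1.85, Tm7sf2 -2.54, Msmo1 -2.18, Nsdhl -0.96, Hsd17b7 -2.81, Ebp -1.83, Sc5d -1.83, Dhcr7 -1.78, Srebf2 -0.91 and Insig1 -1.02. In the fatty acid branch they were Acly -1.02, Acss2 -2.23, Aacs -1.67, Acaca -1.43, Fasn -2.27, Elovl6 -3.41, Scd1 -1.47, Scd2 0.70, Lpin1 -1.93 and Srebf1 -0.86. The experiments differ in age, Cre system and normalisation, and the share of each was not tested.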

How the results depend on the processing

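Changed counts are given as member calls and all calls, and the cause of each change was not tested. Counts over both branches and over all genes that are not named below stayed within 1.5 times of those in the report, and the other offsets and no filter moved none of these past it. With squamous epithelium markers as a covariate calls numbered 2 members and 456 in all in pup homozygotes, 2 members and 320.0 in all in pup KEAP1 loss, 0 members and 3 in all in pup homozygotes versus KEAP1 loss, 4 members in adult homozygotes versus heterozygotes, 5 members and 560.0 in all in the homozygous adult-minus-pup difference, 2 members and 645 in all in the KEAP1 adult-minus-pup difference. With striated muscle markers as a covariate calls numbered 2 members and 345 in all in pup homozygotes versus KEAP1 loss, 0 members and 85 in all in adult heterozygotes, 0 members and 584 in all in adult KEAP1 loss, 0 members and 458 in all in adult homozygotes versus heterozygotes, 0 members and 1 in all in adult homozygotes versus KEAP1 loss, 2629 in all in the KEAP1 adult-minus-pup difference. With adipose markers as a covariate calls numbered 1 member and 466 in all in pup homozygotes versus KEAP1 loss, 2 members and 2554 in all in adult homozygotes, 2 members and 850.0 in all in adult homozygotes versus heterozygotes. In fits of only the groups compared calls numbered 0 members and 185 in all in pup homozygotes versus KEAP1 loss, 1 member and 809 in all in adult heterozygotes, 1544 in all in adult homozygotes versus heterozygotes. With a replicate block calls numbered 0 members and 222 in all in pup homozygotes versus KEAP1 loss. With limma-voom on recovered reads calls numbered 0 members in pup homozygotes versus KEAP1 loss, 9 members in adult heterozygotes. With upper-quartile scaling calls numbered 1 member in pup homozygotes versus KEAP1 loss. Same-numbered libraries had r of -0.129 to 0.273 in pups and -0.107 to 0.116 in adults, with 4 of 9 and 10 of 24 correlating best with their own number. These values do not settle whether replicate numbers pair libraries. Besides the counts above, no count over both branches or all genes moved past 1.5 times under the block. By branch, with a block, adult homozygotes had 5 sterol genes lower (from 3) and 0 fatty acid genes (from 2), with the calls of Fasn (adjusted p = 0.074) and Lpin1 (0.06) lost, and fatty acid genes lower than in heterozygotes went from 2 to 1 (Scd1, 0.072), and those higher than in KEAP1 loss from 1 to 2. Stard4 in pup homozygotes lost its call too (0.057). Leaving out each library in turn, member calls ranged from 28 to 30 in pup homozygotes, 30 each time in pup KEAP1 loss, 0 to 6 in pup homozygotes versus KEAP1 loss, 1 to 8 in adult heterozygotes, 4 to 9 in adult homozygotes, 16 to 20 in adult KEAP1 loss, 4 to 9 in adult homozygotes versus heterozygotes, 13 to 16 in adult homozygotes versus KEAP1 loss, 26 to 28 in the homozygous adult-minus-pup difference, 28 to 29 in the KEAP1 adult-minus-pup difference. All calls ranged from 6507 to 8307 in pup homozygotes, 8780 to 10588 in pup KEAP1 loss, 47 to 924 in pup homozygotes versus KEAP1 loss, 623 to 2448 in adult heterozygotes, 3057 to 4984 in adult homozygotes, 8246 to 9669 in adult KEAP1 loss, 2132 to 3314 in adult homozygotes versus heterozygotes, 4097 to 5699 in adult homozygotes versus KEAP1 loss, 5454 to 6597 in the homozygous adult-minus-pup difference, 8164 to 9177 in the KEAP1 adult-minus-pup difference. Some log2 values changed sign, with the value of the report in brackets. Scd1 in adult KEAP1 loss (-1.31) became 0.051 with muscle markers. Srebf1 in pup homozygotes (0.48) became -0.11 with squamous markers. Srebf1 in pup KEAP1 loss (0.65) became -0.11 with squamous markers. Srebf1 in adult heterozygotes (-0.17) became 0.17 with muscle markers. Srebf1 in adult homozygotes (-0.02) became 0.013 with limma-voom, 0.064 with adipose markers, 0.042 with muscle markers, 0.0034 with thinned reads, 0.023 with squamous markers and -0.10 to 0.11 without 1 library (opposite in sign without library wild-type 1, wild-type 2 and homozygous 2). Srebf2 in adult KEAP1 loss (0.03) became -0.032 with upper-quartile scaling, -0.039 with muscle markers and -0.007 to 0.072 without 1 library (opposite in sign without library wild-type 4 and KEAP1-loss 1). Scd2 in adult homozygotes versus KEAP1 loss (-0.83) became 0.33 with muscle markers. Lpin1 in adult homozygotes versus KEAP1 loss (0.68) became -0.20 with muscle markers. Srebf1 in the homozygous adult-minus-pup difference (-0.50) became 0.13 with squamous markers. Scd2 in the KEAP1 adult-minus-pup difference (0.70) became -0.39 with muscle markers. A count moved by over 1.5 times without libraries wild-type 2, wild-type 3, homozygous 1, homozygous 2, homozygous 3, KEAP1-loss 1, KEAP1-loss 2 and KEAP1-loss 3 for pup homozygotes versus KEAP1 loss, libraries wild-type 1, wild-type 2, wild-type 3, wild-type 4 and heterozygous 1 for adult heterozygotes, libraries wild-type 2, wild-type 3, homozygous 1 and homozygous 3 for adult homozygotes and libraries homozygous 1 and homozygous 3 for adult homozygotes versus heterozygotes. Among single-member values and branch counts, 235 values lost their call under another setting and 130 without 1 library. In the same order, 15 and 5 values changed sign, 1 and 2 gained a call, and 67 and 62 branch counts moved past 1.5 times. The other 2102 and 3358 were values that kept direction and side of the threshold or counts that stayed within 1.5 times. Adult depth differed between the genotypes, and thinning reads to the lowest library kept the counts over both branches and over all genes within 1.5 times, but by branch the fatty acid genes lower in adult homozygotes went from 2 to 0 and the sterol genes lower in pup homozygotes than in KEAP1 loss from 3 to 5.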
